A study of Mus musculus with 2 samples.

Results

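The heat shock proteins and DnaJ chaperones were examined during adipogenesis of mouse brown preadipocytes. The group was taken by gene symbol from the RNA-Seq table and held the Hsp70, Hsp110, Hsp90, Hsp60, Hsp10 and small Hsp genes, the DnaJ genes, the subunits of the chaperonin TRiC, the Bag genes, Hspbp1 and the heat shock factors Hsf1, Hsf2 and Hsf4. In all, 92 of the 23361 genes with values were members. By what is known of their proteins, 60 were placed in the cytosol (including the nucleus), 12 in the ER and 10 in the mitochondrion, 7 were left without a compartment, and 3 were heat shock factors, which are not chaperones.

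RNA-Seq was performed once at each stage, on cells cultured from the interscapular brown fat of mice just born. The labels give the strain as C57BL/6 and the methods of the study as C57BL/6J. Cells were grown in DMEM with 20% FBS, which is serum. The D0 library came from brown preadipocytes, which had spent 4 days in a medium with T3 at 1 nM, insulin at 0.1 μM and FBS at 10% before induction. The D7 library came from brown adipocytes, after 2 days of induction with indomethacin (0.125 mM), dexamethasone (2 μg/ml) and IBMX (0.5 mM) and further culture in the same medium without these reagents. The labels call the cells primary cultures, whereas the methods of the study describe immortalization with large T and give other amounts of insulin, dexamethasone and serum than the labels. The labels do not say whether animals were pooled. With 1 library per stage there is no replicate, so no p-value is given, and differences compare the D0 library with the D7 library. A value is an FPKM, the number of fragments scaled to the length of the transcript in kb and to the number of fragments in the library. The ratio is FPKM at D7 divided by FPKM at D0, and a gene is called higher at a ratio of at least 2.0 and lower at a ratio of at most 0.5. Intervals of ratios are exact 95% intervals on the recovered numbers of fragments and cover counting error only.

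Chaperones bind unfolded stretches of other proteins and keep them from clumping until they fold. An Hsp70 binds and releases its client with ATP. J proteins, named after bacterial DnaJ, bring clients to Hsp70 and start ATP hydrolysis, and nucleotide exchange factors such as Hsp110 and Bag proteins reset it. Each compartment has its own set, with Hspa8 as the constant Hsp70 of the cytosol, Hspa5 (BiP) in the ER and Hspa9 (mortalin) in the mitochondrial matrix. Hsp90 acts later on kinases and receptors, and the barrels TRiC in the cytosol and Hsp60 with its Hsp10 lid in the matrix enclose clients whole. Heat and misfolded proteins in the cytosol activate Hsf1, and misfolded proteins in the ER activate the unfolded protein response. Brown adipocytes are rich in mitochondria, whose proteins are for the most part imported unfolded.

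Adipocyte markers differed between the libraries, while preadipocyte markers went both ways. All of 8 adipocyte markers were higher at D7, for example Fabp4 at 20.3 FPKM at D0 and 14391 at D7, and Ucp1, Cidea and Elovl3 were listed at 0 at D0 and at 4.57, 24.4 and 34.2 FPKM at D7. Of 5 preadipocyte markers, Pdgfrb (114 and 38.9 FPKM) and Thy1 (657 and 308) were lower, Pdgfra and Ly6a had ratios of 0.973 and 0.741, and Cd34 was higher (1.85 and 15.4). Of 10 proliferation markers, 9 were lower, with a summed level of 131 FPKM at D0 and 57.0 at D7. Of 10 macrophage markers, 9 were higher and 0 lower (summed 146 and 515 FPKM, of which Lyz2 had 111 and 286). The 6 endothelial markers summed to 1.58 and 2.62 FPKM. The 10 skeletal muscle markers summed to 52.4 and 6.4 FPKM, of which Acta1 alone had 45.4 and 1.73. Of the 6 muscle markers above 0 in both libraries, 2 had a ratio over 1 and 4 under 1. Myod1, Myf5 and Ckm were listed at 0 in both libraries. Any part of other cells or of the end of proliferation in the ratios given here was not tested. Less RNA of a gene per cell and fewer cells that express it cannot be told apart in such libraries. The denominators recovered from the table were 21471824 fragments for the D0 library and 18266002 for the D7 library.

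Of the 92 members, 85 were above 0 in both libraries, 3 were listed at 0 in 1 library, and 4 were at 0 in both. In all, 80 had at least 1 FPKM in at least 1 library. Together the members summed to 6197 FPKM at D0 and 5533 at D7, that is 1.21% and 1.06% of the whole table. Among the 85 members above 0 in both libraries, 9 were called higher and 5 lower, against 18.5% and 13.2% of all 14986 genes. A floor of 0.01 FPKM and division of each library by its median moved all log2 ratios by -0.35. The counts of members then became 7 and 19, which include the 3 members listed at 0 in 1 library. Over the 14986 genes above 0 in both libraries, the same division gave 2001 higher and 3247 lower, against 2767 and 1980 before it. The median log2 ratio was -0.13 for the members and 0.02 for all genes. The interval lay above 1 for 24 members and below 1 for 45, against 34.4% and 35.4% of genes. Thus few members passed 2-fold, and changes of smaller size made up most of the pattern.

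That pattern went by compartment. The median log2 ratio was -0.16 over 53 cytosolic members, -0.17 over 12 ER members and 0.83 over 10 mitochondrial members. On the ratio scale these medians were 0.897, 0.889 and 1.78. The interval lay above 1 for 9 of the 10 mitochondrial members, and below 1 for Hspe1, beside 34.4% and 35.4% of all genes. In the cytosol it lay above 1 for 9 members, below 1 for 30 and included 1 for 14. In the ER it lay above 1 for 4, below 1 for 7 and included 1 for 1. The difference between the mitochondrial and the cytosolic median was 0.99 on the log2 scale and lay between 0.94 and 1.07 under the pseudocounts, the filters, the floor and the left-out members. A scaling that multiplies a whole library cannot move such a difference. The difference between the ER and the cytosolic median was -0.01, ranged from -0.03 to 0.03, and had no stable sign.

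**Figure D1:**
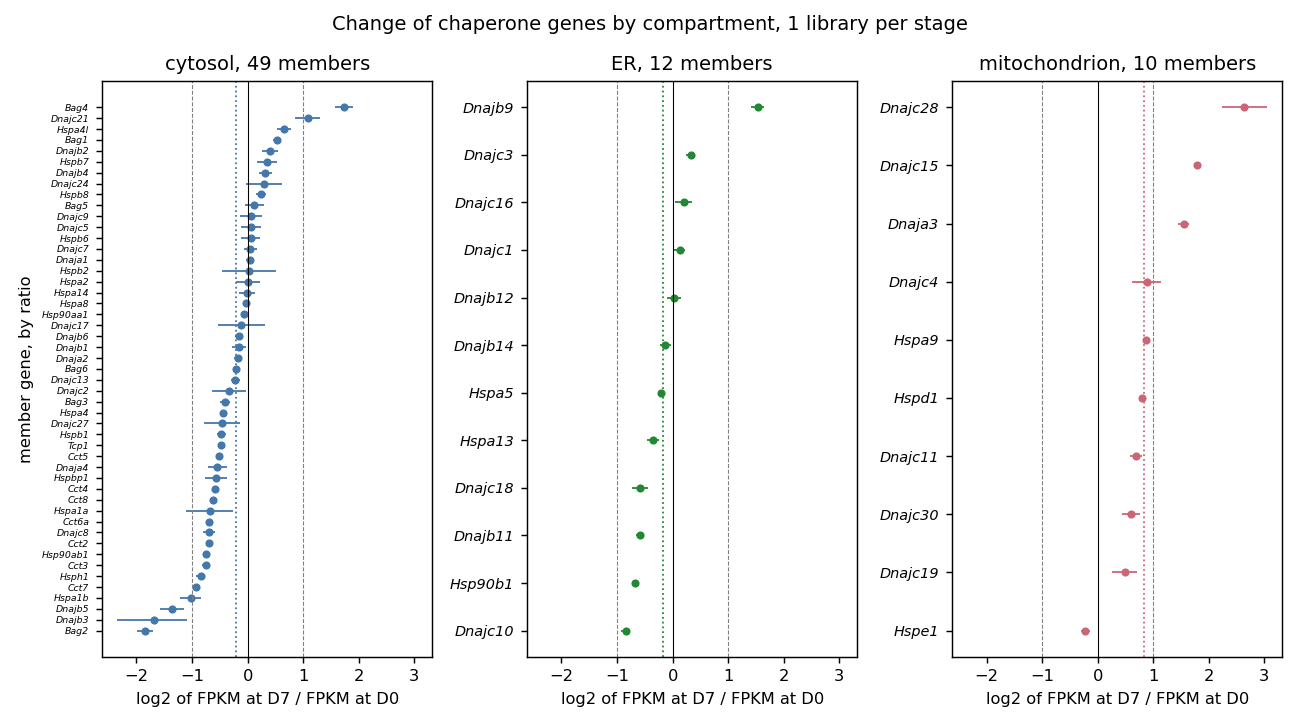
Log2 ratio of FPKM at D7 to FPKM at D0 (x axis) for each member with at least 1 FPKM in at least 1 library (y axis, sorted), by compartment. Points are single values and bars are 95% counting intervals, dashed lines mark 2-fold, and the dotted line is the median of the points shown (-0.20, -0.17 and 0.83 on the log2 scale). In the mitochondrial panel every point except Hspe1 lies to the right of 0, while the cytosolic and ER points spread on both sides.

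The same held for summed levels. The cytosolic members summed to 4306 FPKM at D0 and 3473 at D7, the ER members to 1090 and 860, and the mitochondrial members to 704 and 1121. The mitochondrial share of the level of all members was thus 11.4% at D0 and 20.3% at D7, while the cytosolic share was 69.5% and 62.8%. At D0 the ER sum was the larger of the ER and mitochondrial sums, and at D7 the mitochondrial sum was.

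**Figure D2:**
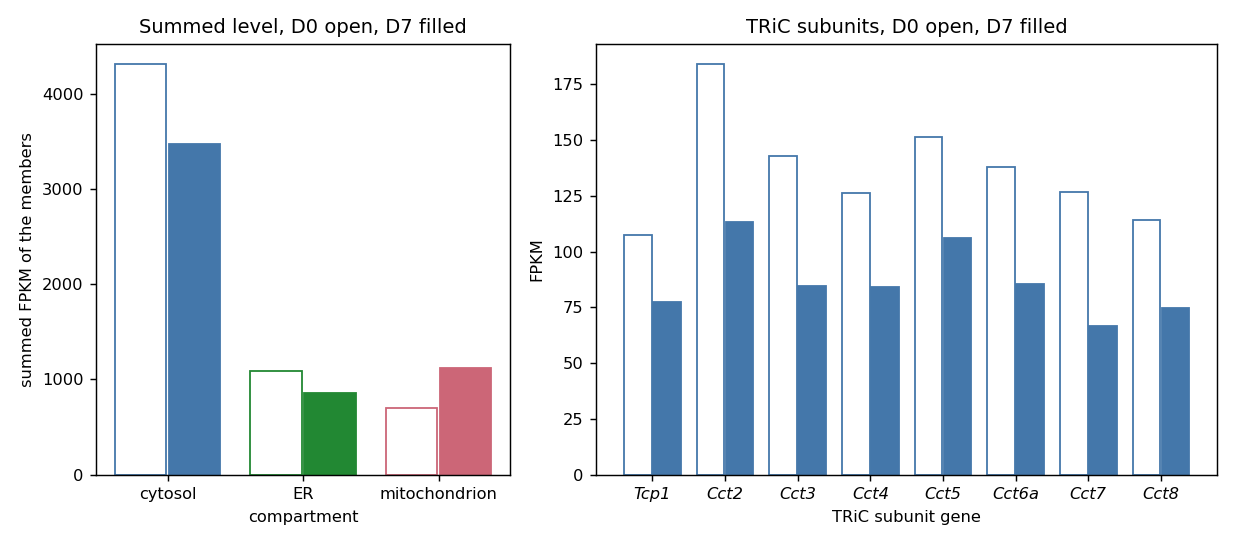
Left, summed FPKM (y axis) of the members of each compartment (x axis) at D0 (open bars) and D7 (filled bars). The mitochondrial sum was 704 at D0 and 1121 at D7, and the other sums were lower at D7. Right, FPKM (y axis) of each TRiC subunit gene (x axis), with D7 below D0 for all 8 subunits. Each bar is 1 library, so there are no error bars.

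In the cytosol and the ER the main Hsp70 gave most of the Hsp70 level, while the mitochondrion had only 1 Hsp70 member, Hspa9. Hspa8, the constitutive Hsp70 of the cytosol, had 1129 FPKM at D0 and 1107 at D7, the highest level of any member in both libraries. Its ratio was 0.980 (0.968 to 0.993), which turned above 1 when the median ratio of expressed genes was set to 1. Of all genes, it ranked 76 at D0 and 43 at D7. Hspa5, which binds proteins entering the ER and holds the stress sensors of the ER, had 405 and 351 FPKM, a ratio of 0.867 (0.849 to 0.885). Hspa9, which pulls proteins through the inner membrane into the matrix, had 236 and 431 FPKM, a ratio of 1.83 (1.79 to 1.87), just under the 2-fold limit. Hspa9 was at 0.582 of the level of Hspa5 at D0 and at 1.23 of it at D7, so the order of these Hsp70 genes was not the same in the 2 libraries. Relative to Hspa8, Hspa9 was at 0.209 at D0 and 0.390 at D7. All 90-base stretches of the transcript of Hspa5 and of Hspa9 were found in no other gene, whereas 64.7% of those of Hspa8 occurred in another annotated gene, mostly Gm15459, so the value of Hspa8 depends on how shared reads were counted.

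The stress-inducible Hsp70 genes were low. Hspa1b had 13.8 FPKM at D0 and 6.83 at D7, which gave a ratio of 0.494 (0.433 to 0.562). Hspa1a had 2.42 and 1.51 FPKM, a ratio of 0.623 (0.462 to 0.835). These genes lie beside each other on chromosome 17 (mm10, 34956436 to 34959238 and 34969190 to 34972156, both on the minus strand), and 52.3% of the 90-base stretches of Hspa1b also occur in Hspa1a, so their separate values are uncertain. Hspa1l, their neighbour, had 0.479 and 0.858 FPKM (24 and 36 fragments). Hspa2 had 8.02 and 8.03 FPKM, and Hspa14, which works at the ribosome, had 24.2 and 23.9, and the intervals of both included 1. Hspa13 of the ER had 18.8 and 14.7 FPKM, a ratio of 0.781. The distant relatives Hspa12a and Hspa12b had ratios of 0.644 and 0.516, at 5.15 and 2.32 FPKM at D7. The deposited locus of Hspa12b spans 11 other coding genes, so its value is uncertain. At no stage did the inducible Hsp70 genes come near Hspa8, which was 81.6 times as high as Hspa1b at D0 and 162 times at D7.

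**Figure D3:**
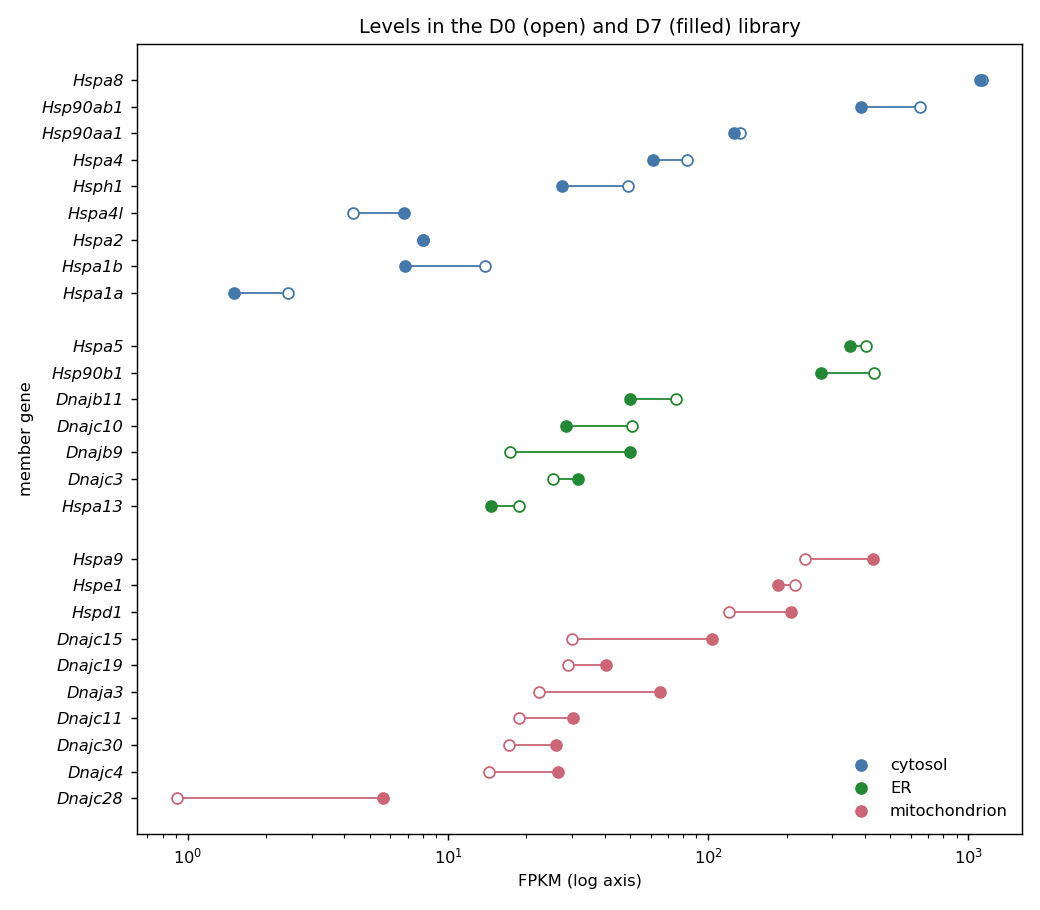
FPKM on a log axis (x axis) at D0 (open circles) and D7 (filled circles) of chosen members (y axis), coloured by compartment. Shown are the Hsp110 and Hsp90 genes, Hspd1, Hspe1, the mitochondrial J proteins, and part of the Hsp70 genes and ER J proteins. Hspa14, Hspa1l, Hspa12a, Hspa12b, Dnajb12, Dnajb14, Dnajc1, Dnajc16 and Dnajc18 are not shown. Among the mitochondrial genes, the filled circle is to the right except for Hspe1, from 0.907 to 5.63 FPKM for Dnajc28 up to 236 to 431 for Hspa9.

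Hsp90 genes had ratios under 1 that did not pass 2-fold with FPKM as deposited. Hsp90ab1, the constitutive cytosolic form, had 649 and 386 FPKM, a ratio of 0.594 (0.583 to 0.605). Hsp90aa1, the inducible form, had 132 and 126 FPKM, a ratio of 0.952 (0.922 to 0.982), so the constitutive form was 4.91 times the inducible one at D0 and 3.07 times at D7. The ER form Hsp90b1 (GRP94) had 434 and 272 FPKM, a ratio of 0.627 (0.614 to 0.641). After division by the library median, Hsp90ab1 (0.465) and Hsp90b1 (0.491) passed 2-fold. The mitochondrial Hsp90, Trap1, is not a member by symbol but is the counterpart of these genes, and it had 39.7 and 113 FPKM, a ratio of 2.84. For Hsp90aa1, 50.0% of the 90-base stretches occurred in another gene, mostly Gm12346. Among the Hsp110 genes, which release ADP from Hsp70, Hsph1 had 49.1 and 27.4 FPKM (0.558) and Hspa4 had 82.8 and 61.3 (0.740). Hspa4l, their close relative, went the other way, with 4.30 and 6.76 FPKM (1.57, 1.44 to 1.72).

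The subunit genes of TRiC, the cytosolic barrel that folds actin and tubulin, had ratios under 1, and none passed 2-fold with FPKM as deposited. All 8 subunits of the complex (Tcp1, Cct2, Cct3, Cct4, Cct5, Cct6a, Cct7 and Cct8) had a ratio under 1 with an interval below 1, from 0.526 (0.503 to 0.551) for Cct7 to 0.720 (0.689 to 0.752) for Tcp1. Of all genes, 35.4% had such an interval. The direction was the same under each scaling tried, and after division by the library median Cct2 (0.482), Cct3 (0.465), Cct6a (0.486) and Cct7 (0.412) passed 2-fold. Cct2, the highest, had 184 FPKM at D0 and 113 at D7. Cct7 had 127 and 66.7 FPKM. The mean over the 8 subunits was 136 ± 24.0 FPKM (SD over 8 subunits) at D0 and 86.5 ± 15.7 at D7, while the coefficient of variation was 17.6% and 18.2%. The highest subunit was 1.71 times the lowest at D0 and 1.70 times at D7. No 90-base stretch of these subunits occurred in a transcript of another gene, read in the same direction. Opposite strands were not compared. Exons on the other strand overlap those of Cct6a (Psph), Cct7 (Pradc1), Cct8 (Usp16) and Tcp1 (Acat3 and Mrpl18). The effect of these overlaps on the values was not tested. Cct6b, a form known from testis, had 0.205 and 0.345 FPKM (7 and 10 fragments), and Cct8l1 was listed at 0 in both libraries. Prefoldin, which hands actin and tubulin to TRiC, was measured in 5 of 6 subunits. The ratio was under 1 for 4 of them, down to 0.590 for Pfdn4, none passed 2-fold, and the median log2 ratio was -0.32.

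The mitochondrial barrel behaved otherwise, and its parts differed. Hspd1 (Hsp60), which forms the ring, had 120 FPKM at D0 and 208 at D7, which gave a ratio of 1.73 (1.68 to 1.79). Hspe1 (Hsp10), which forms the lid, had 216 and 185 FPKM, a ratio of 0.857 (0.808 to 0.908). Hspd1 was therefore at 0.555 of the level of Hspe1 at D0 and at 1.12 of it at D7. These genes are known to be transcribed in opposite directions from a shared promoter on chromosome 1. In the GENCODE annotation (mm10), Hspd1 lies at 55077835 to 55088243 on the minus strand and Hspe1 at 55088132 to 55091307 on the plus strand, so that their first exons overlap. Whether strand was used in counting is not stated in the sources used here, and the effect of the overlap on the values was not tested. In addition, 29.4% of the 90-base stretches of Hspd1 occurred in another gene, mostly Hspd1-ps3, and 21.6% of those of Hspe1.

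The stretch before the RefSeq start of Hspe1, which falls in an annotated exon of Hspd1, holds letters that heat shock factors are known to bind. A heat shock element was searched as at least 3 adjoining units of 5 bases that alternate between NGAAN and NTTCN, which covers both strands, in RefSeq windows of 300 bases (250 before and 50 after each start, GRCm38.p6). It was found in 196 of 32851 windows (0.597%). Of the members, 74 had 94 windows in the table, and 6 windows of 4 genes (Hspd1, Hspe1, Hsph1 and Dnajb6) held it. Hspa8, Hspa9, Hsp90aa1 and Hsp90ab1 were among the members without a window and were not searched. The windows of Hspa1a, Hspa1b, Hspb1 and Dnajb1 held no run of 3 units. The search took only exact adjoining units, so the lack of a match does not mean that a gene has no element. The matches are shown because the genes beside them differed in direction, with the match in capitals, each on the strand of its gene, counted from the nearer RefSeq start where a gene had several, and with the same site given for Hspe1 and Hspd1 from both sides.
Hspe1, chr1:55088053-55088082, plus strand, match from 90 bases before the start: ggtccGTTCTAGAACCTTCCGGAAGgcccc
Hspd1, chr1:55088053-55088082, minus strand, match from 145 bases before the start: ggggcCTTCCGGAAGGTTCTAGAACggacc
Hsph1, chr5:149636280-149636308, minus strand, match from 14 bases after the start: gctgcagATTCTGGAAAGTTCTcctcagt
Dnajb6, chr5:29735844-29735872, plus strand, match from 47 bases before the start: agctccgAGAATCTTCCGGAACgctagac
The site of Hspd1 and Hspe1 holds 4 units in a row and the others 3. Some of these letters fall in annotated exons, since the starts in GENCODE and RefSeq differ, and Hspd1 has a RefSeq start on either side of its site. The ratio was 1.73 for Hspd1, 0.857 for Hspe1, 0.558 for Hsph1 and 0.897 for Dnajb6, so genes with the element lay on both sides of 1. A match is a description of the sequence and no evidence of binding in these cells.

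J proteins of the mitochondrion among the members all had a ratio over 1, with intervals above 1 for 7 of 7, beside 34.4% of all genes. Hscb, a mitochondrial J protein outside the symbol rule, had 17.2 and 15.4 FPKM, a ratio of 0.895 (0.731 to 1.09). Dnajc15, a J protein of the inner membrane that is linked to protein import, had 29.9 FPKM at D0 and 103 at D7, which gave a ratio of 3.44 (3.32 to 3.57). Dnaja3 (Tid1), the main matrix partner of Hspa9, had 22.3 and 65.2 FPKM, a ratio of 2.92 (2.73 to 3.13). Dnajc28 had 0.907 and 5.63 FPKM (62 and 328 fragments), a ratio of 6.21 (4.73 to 8.30), the highest ratio of any member. These were the 3 of 10 mitochondrial members called higher, and 0 were called lower, beside 18.5% and 13.2% of all genes. Dnaja3 shares exon sequence with Vasn on the same strand and Coro7 on the other, so part of its value could be assigned to these genes.

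The other mitochondrial J proteins changed less. Dnajc19, the import motor subunit that resembles Dnajc15, had 28.9 and 40.5 FPKM, a ratio of 1.40 (1.20 to 1.64), and 20.2% of its 90-base stretches occurred in Dnajc19-ps. Dnajc15 was 1.03 times as high as Dnajc19 at D0 and 2.54 times at D7. Dnajc4 had 14.4 and 26.5 FPKM, a ratio of 1.84. Dnajc11, which is tied to the cristae, had 18.7 and 30.1 FPKM (1.61), and Dnajc30, which is tied to the respiratory chain, had 17.2 and 26.0 (1.51). The summed J protein level relative to the summed Hsp70 level was 0.561 at D0 and 0.689 at D7 in the mitochondrion, 0.546 and 0.605 in the ER, and 0.402 and 0.376 in the cytosol.

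Other genes of mitochondrial protein folding, import and breakdown were compared with these members. Of 15 genes, 6 were higher and 0 lower, beside 18.5% and 13.2% of all genes, and the median log2 ratio was 0.90, against 0.83 for the mitochondrial members and 0.02 for all genes. After division by the library median, 2 of the 15 were higher, beside 2001 of all 14986 genes, and the median was 0.55. The higher genes were Clpx, the unfoldase of a matrix protease (11.1 and 43.8 FPKM), Trap1, the inner membrane protease subunit Afg3l2 (20.5 and 47.9 FPKM), the exchange factor of Hspa9 named Grpel1 (19.6 and 44.5 FPKM), the matrix protease Lonp1 (45.9 and 101 FPKM) and Timm44, which tethers Hspa9 to the import channel (17.1 and 37.4 FPKM). Their ratios ran from 2.19 for Timm44 to 3.96 for Clpx. Among them, Clpb stood at a ratio of 1.998, just under the limit. The interval included 1 for the J protein Hscb (0.895) and for the protease Htra2 (0.991). Atf5, a transcription factor linked to mitochondrial stress, had 323 and 350 FPKM (1.09).

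**Figure D4:**
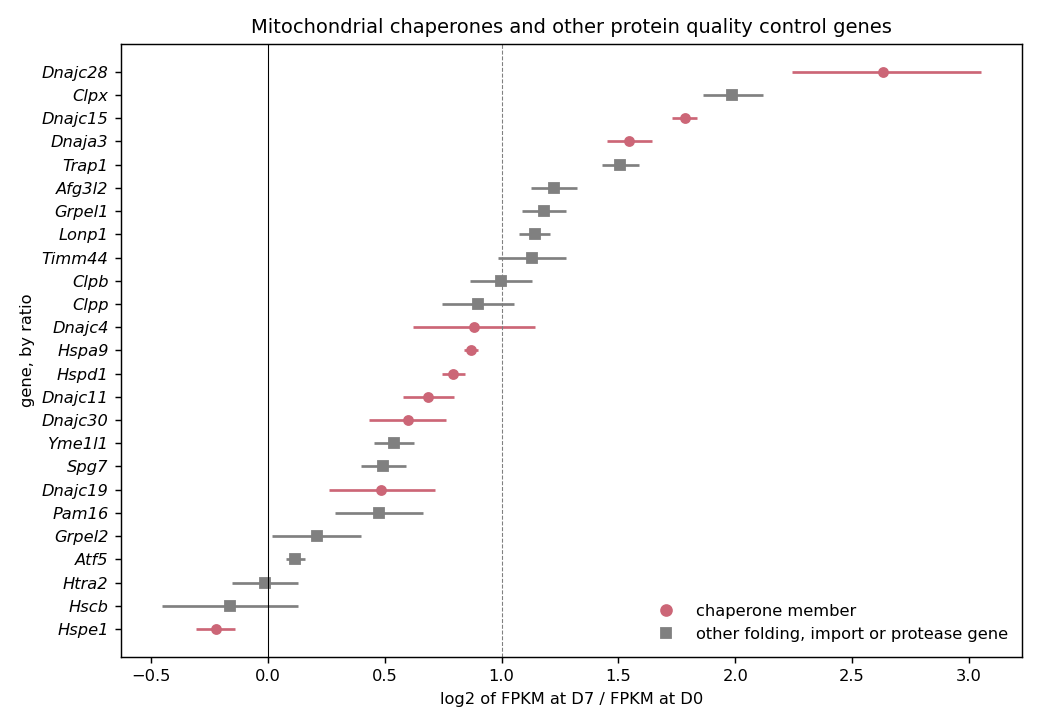
Log2 ratio of FPKM at D7 to FPKM at D0 (x axis) for the 10 mitochondrial members (circles) and 15 other genes of mitochondrial protein quality control (squares), sorted (y axis). Points are single values, bars are 95% counting intervals, and the dashed line marks 2-fold. Both kinds of gene are mixed along the order, with Dnajc28 at the top and Hspe1 at the bottom.

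In the ER, the most abundant members had ratios under 1 and 1 J protein was called higher. Dnajb9 (ERdj4), which brings proteins to degradation and holds the stress sensor IRE1 inactive, had 17.4 FPKM at D0 and 50.2 at D7, which gave a ratio of 2.89 (2.67 to 3.14). Relative to Hspa5, it was at 0.0429 at D0 and 0.143 at D7. Dnajb11 (ERdj3), a folding partner of Hspa5, had 75.0 and 49.8 FPKM (0.665, 0.630 to 0.701). Dnajc10 (ERdj5), a reductase with a J domain, had 51.0 and 28.4 FPKM (0.557, 0.528 to 0.587). Dnajc3 (p58IPK), which is induced by ER stress, had 25.3 and 31.7 FPKM (1.25, 1.19 to 1.32), and its ratio turned below 1 after division by the library median. Dnajc18 and Dnajb14 had ratios of 0.666 and 0.912, Dnajc1 and Dnajc16 had ratios of 1.09 and 1.15, which turned below 1 under the same division, and the interval of Dnajb12 (1.02) included 1. The ER members therefore held neither a joint increase nor a joint decrease.

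Of 24 other genes of ER folding and the unfolded protein response, 1 was higher and 2 were lower, beside 18.5% and 13.2% of all genes. After division by the library median 8 were lower, beside 3247 of all 14986 genes. With the median ratio of expressed genes set to 1, 0 were lower, beside 1836 of all 14986 genes. Rescaling to TPM gave 3 lower, beside 2065 of all genes. A pseudocount of 1 gave 1 lower, and for it the share of all genes was not counted. The oxidase Ero1l, which feeds disulfide bond formation, had 36.8 and 110 FPKM, a ratio of 2.97 (2.86 to 3.10). The disulfide isomerase P4hb had 595 and 297 FPKM (0.499, 0.489 to 0.509), and Creld2 had 34.6 and 17.2 (0.498, 0.440 to 0.563). Both intervals included the limit of 0.5. The ratio was under 1 for 17 of the 24, with a median log2 of -0.18. Among targets of the response, Hyou1 had a ratio of 0.520, Pdia4 of 0.509 and Herpud1 of 0.961, while Xbp1, a transcription factor of the response, had 60.4 and 74.7 FPKM (1.24). These genes and Dnajb9 thus did not share a direction.

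The ER stress element, CCAAT followed by any 9 bases and CCACG, was searched on both strands of the same windows. It was found in 39 of 32851 windows (0.119%), and in 3 of 10 windows of ER members. The members with it were Hspa5, Hsp90b1 and Dnajc3, and no window of the cytosolic or mitochondrial members held it. The sites are shown with the match in capitals, on the strand of the gene.
Hspa5, chr2:34772020-34772048, plus strand, match from 65 bases before the start: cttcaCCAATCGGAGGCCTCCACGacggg
Hsp90b1, chr10:86705633-86705661, minus strand, match from 212 bases before the start: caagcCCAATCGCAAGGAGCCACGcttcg
Hsp90b1, chr10:86705528-86705556, minus strand, match from 107 bases before the start: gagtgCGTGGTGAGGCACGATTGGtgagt
Dnajc3, chr14:118937822-118937850, plus strand, match from 105 bases before the start: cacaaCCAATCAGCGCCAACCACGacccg
The nearer site of Hsp90b1 reads in the opposite orientation. The ratios of these genes were 0.867 for Hspa5, 0.627 for Hsp90b1 and 1.25 for Dnajc3. No window of Dnajb9 held these letters.

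Cytosolic J proteins lay on both sides of 1. Of 25 genes, 20 were above 0 in both libraries, with a median log2 ratio of -0.13, and 2 were called higher and 2 lower, beside 18.5% and 13.2% of all genes. Dnajc21, known from ribosome assembly, had 6.21 and 13.1 FPKM (251 and 451 fragments), a ratio of 2.11 (1.81 to 2.48), which went to 1.66 after division by the library median. Dnajb5 had 11.1 and 4.32 FPKM, a ratio of 0.391 (0.336 to 0.451). Dnajb3 had 5.72 and 1.77 FPKM (107 and 28 fragments), but its deposited locus spans 9 coding genes of the Ugt1a cluster, so this value is uncertain. Dnajc6, the other member called higher, was at 0.0655 and 0.143 FPKM, from 7 and 13 fragments. Dnajb1, the main heat-inducible partner of Hsp70, had 20.8 and 18.7 FPKM (0.897). Dnaja1 and Dnaja2, which work with Hspa8 and Hsp90, had ratios of 1.03 and 0.890, and that of Dnaja1 turned below 1 after division by the library median. Dnajc8, a nuclear J protein tied to splicing, had the highest level of these genes at D0, with 79.1 FPKM and 48.8 at D7 (0.617), while Dnajb6 had the highest at D7 (71.2 and 63.9). Among J proteins without a compartment, Dnajc22 had 0.182 and 0.813 FPKM, from 5 and 21 fragments.

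Exchange factors of the Bag family spanned the widest range of ratios among the cytosolic families, from 0.278 to 3.34. Bag2, which blocks the ubiquitin ligase Stub1, had 58.3 FPKM at D0 and 16.2 at D7, which gave a ratio of 0.278 (0.252 to 0.307), the lowest ratio of any member. Bag4 had 4.00 and 13.4 FPKM, a ratio of 3.34 (2.97 to 3.74). Bag1, which links Hsp70 to the proteasome, had 118 and 171 FPKM (1.45, 1.38 to 1.52). Bag3, which links it to autophagy, had 50.2 and 37.9 FPKM (0.756, 0.710 to 0.805). The summed level hid these differences, since the Bag genes together with Hspbp1 had 321 FPKM at D0 and 316 at D7. Bag6 had a ratio of 0.869, and the exchange factor Hspbp1 of 0.676. Bag5 had 15.0 and 16.4 FPKM (1.09), with an interval that included 1 and a ratio under 1 after division by the library median.

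Small heat shock proteins, which hold unfolded proteins without ATP, did not share a direction. Of 6 cytosolic ones above 0 in both libraries, the interval lay above 1 for 2, below 1 for 1 and included 1 for 3. Of all genes, 34.4% had an interval above 1 and 35.4% below 1. Hspb1 (Hsp25) gave most of their level, with 219 and 158 FPKM (0.721, 0.682 to 0.761). As 56.9% of its 90-base stretches occur in Hsp25-ps1, this value depends on the counting of shared reads. Hspb8, which works with Bag3, had 64.9 and 76.5 FPKM (1.18), and turned below 1 after division by the library median, while Hspb7 had 8.58 and 11.0 (1.28). The intervals of Hspb2 (1.01) and Hspb6 (1.04) included 1. So did that of Hspb11 (1.01), which was grouped here by its symbol and left without a compartment. Cryab, their relative outside the symbol rule, had 111 and 155 FPKM (1.40). Hspb9 had 0.0852 and 0.201 FPKM from 1 and 2 fragments, so its ratio of 2.36, which counts among the 9 called higher, rests on fewer than 3 fragments in each library.

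Of the heat shock factors, Hsf1, the main factor of the heat shock response, had 18.3 FPKM at D0 and 11.5 at D7, which gave a ratio of 0.632 (0.557 to 0.716). Hsf2 had 5.14 and 6.57 FPKM (1.28, 1.08 to 1.51). Hsf4, known from the lens, had 1.35 and 0.414 FPKM from 40 and 11 fragments, a ratio of 0.307 (0.150 to 0.643). Of 17 cytosolic co-chaperones outside the symbol rule, 1 was higher and 0 were lower, beside 18.5% and 13.2% of all genes. The higher co-chaperone was Fkbp5, an Hsp90 partner and known glucocorticoid target, with 7.21 and 126 FPKM, a ratio of 17.4 (15.9 to 19.1). Cdc37, which brings kinases to Hsp90, had 101 and 58.5 FPKM (0.579), and the median log2 ratio of the 17 genes was -0.02.

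Some chaperone genes start close to another gene on the other strand. Within 1000 bases, or with an overlap of at most 200 bases, 19 of 91 coding members (20.9%) had such a coding neighbour with values, beside 7.56% of all coding genes with values, and these made 17 distinct pairs. In 6 of the 17 pairs the intervals lay on opposite sides of 1, beside 22.8% of 666 such pairs of coding genes, and in 4 pairs they lay on the same side, beside 28.2%. The 6 pairs were Hspd1 and Hspe1, Hspa1a and Hspa1l, Bag1 and Chmp5, Dnajb1 and Tecr, Cct5 and Fam173b, and Dnajc12 and Sirt1. Tecr, an enzyme of fatty acid elongation that starts 222 bases from Dnajb1, had 116 FPKM at D0 and 272 at D7 (2.35), beside 0.897 for Dnajb1. Chmp5, which starts 113 bases from Bag1, had a ratio of 0.858 beside 1.45 for Bag1. Fam173b, 48 bases from Cct5, had 9.25 and 12.7 FPKM (1.37) beside 0.701. The 4 pairs on the same side were Hsf1 and Bop1, Bag4 and Lsm1, Dnajb4 and Fubp1, and Dnajc2 and Psmc2. Hsf1 and Bop1, 145 bases apart, had ratios of 0.632 and 0.644.

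**Figure D5:**
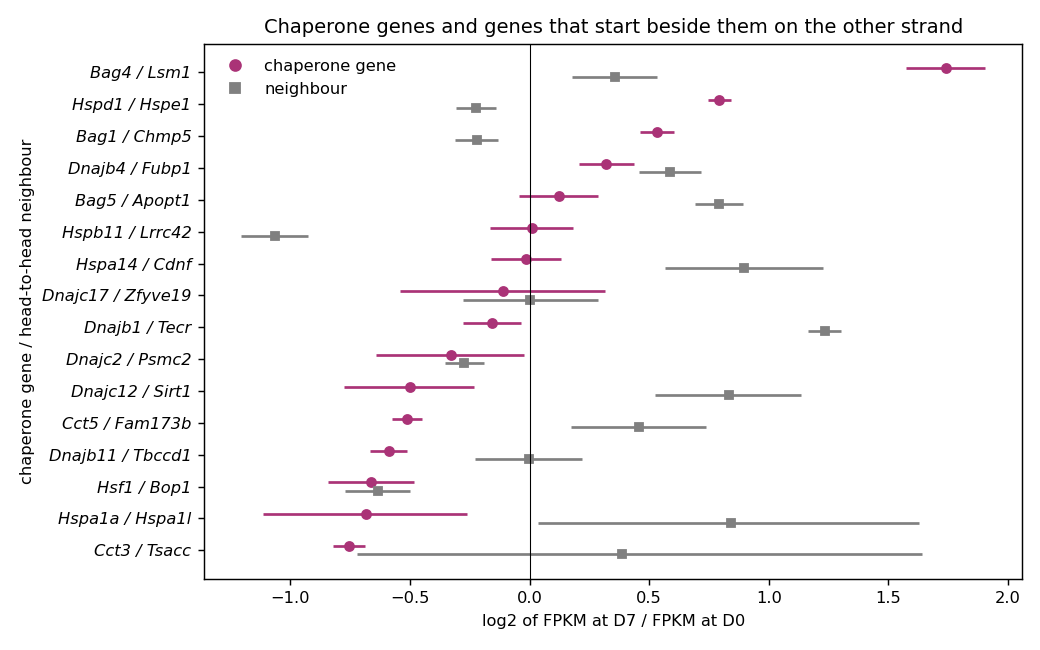
Log2 ratio of FPKM at D7 to FPKM at D0 (x axis) for chaperone genes (circles) and the coding genes that start beside them on the other strand (squares), for the pairs whose member has at least 1 FPKM in a library (y axis). Points are single values and bars are 95% counting intervals. For Hspd1 and Hspe1 the points lie on opposite sides of 0, while those of Hsf1 and Bop1 nearly coincide.

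The values nearest to the 2-fold limits were those of Dnajc21 (2.11) and Dnajc4 (1.84) on the upper side, and of Hspa1b (0.494) and Hspa12b (0.516) on the lower side. Of the members called higher or lower, Dnajc28, Dnajc15, Dnaja3, Dnajb9, Bag4, Bag2, Dnajb5 and Dnajb3 stayed past 2-fold under both pseudocounts and all 3 scalings.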

How the data were processed

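Sequencing used an Illumina HiSeq 2000 with 90 cycles, after degradation of the second cDNA strand. The authors removed low-quality, duplicate and rRNA reads and aligned the others with SOAP2 to mm10 and gene sequences, whereas the submitters' processing notes name Bowtie2. They deposited 1 FPKM value per gene and library. Whether strand was used, and how reads shared between genes were counted, is not given in the sources used here. No paired or replicated test was possible with 1 library per stage.

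Of 27324 rows, 3963 held no value. Ratios used FPKM as deposited, for genes above 0 in both libraries. The fragments behind a value were worked out from 605 single-exon genes. With 179 bases (D0) and 182 bases (D7) taken off each length, 100% of 81 and 88 values up to 20 fragments fell within 0.1 of a whole number, against 20.3% and 17.3% with lengths shuffled. Other lengths were those of the named transcript in GENCODE M21 (87 members), the single exon (4) or the longest transcript (1), so fragments of members with several exons are estimates. Ratios have exact Clopper-Pearson intervals (95%) on these fragments. PCR copies are not independent molecules.

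Transcripts of 92 members were cut into all stretches of 90 bases, and 22 members shared more than 1% of them with another annotated gene. Stretches were compared as transcribed, so overlap with a gene on the other strand is not counted. Promoter windows are from RefSeq. Protein sequences were not analysed here.

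The members, compartments and lists were chosen with earlier results of these data known. Named are members past 2.0-fold at 1 FPKM or more, the 5 highest in each library, the Hsp70, Hsp110, Hsp90, Hsp60, Hsp10, TRiC, Bag and heat shock factor genes, and list genes past 2.0-fold. J proteins and small heat shock proteins between the limits, members under 1 FPKM that pass 2-fold, list genes between the limits and the neighbours at gene starts were named after their values were seen. Alternatives were pseudocounts of 0.1 and 1, filters at 0.1 and 1 FPKM, 3 scalings, other thresholds, summing of rows with 1 symbol, and a minimum of 20 fragments. Scripts were tested on simulated data. The analysis used scipy 1.17.1, pandas 2.3.3 and numpy 2.4.6 under Python 3.11.15, and matplotlib 3.10.9 for plots.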

Additional observations from a re-analysis of the deposited data

How the results depend on the processing

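The count of members called higher was 9, and became 5 with a pseudocount of 1, 2 at a threshold of 4-fold and 17 at 1.5-fold. The count called lower was 5, and became 3 with a pseudocount of 1, 19 with a floor of 0.01 FPKM and division of each library by its median, 0 at 4-fold and 21 at 1.5-fold. For the pseudocount and the other thresholds the share of all genes was not counted, so those counts describe the members only. The 19 include members listed at 0 in 1 library. The division by the library median moved every ratio down by 0.35 on the log2 scale. Over all genes above 0 in both libraries, the division gave 2001 higher and 3247 lower, against 2767 and 1980 before it. The same division took 16 of 80 members with at least 1 FPKM from a ratio over 1 to under 1, none of them mitochondrial. Rescaling to TPM took 4 of the 80 members below 1, and setting the median ratio of expressed genes to 1 took 2 above it.

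The difference of medians between ER and cytosol changed sign, from -0.013 to 0.033 with a filter at 1 FPKM and to 0.016 without members under 20 fragments. The differences of the mitochondrial median to the cytosolic and ER medians kept their sign, from 0.94 to 1.07 and from 0.98 to 1.09. The TPM and median-ratio scalings cannot move a difference of medians, so these ranges rest on the other alternatives. The mitochondrial median itself was lowest, at 0.48, after the division by the library median. Summing rows with 1 symbol changed no value. Leaving out the 22 members that share 90-base stretches with other genes, an alternative chosen after seeing the data, gave 8 higher and 4 lower. No paired analysis was possible because each stage has 1 library. Leaving out a replicate was not possible for the same reason, and depth limits members such as Hspb9, Dnajc6, Dnajc22 and Cct6b, which had at most 21 fragments in a library.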
